A study of Rattus norvegicus with 10 samples.

Results

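Clock output transcription factors are proteins whose genes are switched on and off each day by the circadian clock and which pass the rhythm on to other genes. Rows of the expression table were taken for Tef, Dbp, Hlf, Nfil3, Bhlhe40, Bhlhe41 and Ciart by their gene symbol. Of these 7 genes 5 had a row, among 17419 transcripts in all. Hlf and Bhlhe41 matched no symbol and are not analysed here. The 5 genes with a row all passed the filter used for testing, a mean of at least 0.5 FPKM over the 10 libraries.

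The libraries are messenger RNA from rat knee cartilage, cut from the joint surface with a blade, of animals whose age is given as 5 months in every group. HC is untreated cartilage of control (WT) rats, with 2 libraries. OAC, with 3 libraries, was taken 4 weeks after injection of Papain/L-cysteine, a protease mix that strips proteoglycan from cartilage and serves as a chemical model of osteoarthritis. SHAM, with 3 libraries, was taken 10 weeks after the same injection and had received AAV-DJ-GFP, an adeno-associated virus carrying a fluorescent protein, at week 4. KT, with 2 libraries, had the same timing and received AAV-DJ-Klotho with AAV-DJ-TGFBR2, which the labels call αKlotho and sTGFBR2, at week 4. OAC, SHAM and KT therefore share the papain injury, and SHAM and KT also share a virus injection and the later time. The study followed expression through disease progression and under treatment. Whether each library is a different animal is not in the labels, so a p-value here measures library-to-library spread, possibly technical. The hour of tissue collection is not in them either, so a difference in hour cannot be told apart from a difference between groups, and this bears on every clock gene below.

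In the core of the clock, the proteins encoded by Arntl, Clock and Npas2 bind E-boxes, short DNA elements in front of their targets, and switch on the Per, Cry and Nr1d genes, whose products then hold the activators back. Tef, Dbp and Hlf encode PAR bZIP activators that bind another element, the D-box, and Nfil3 encodes a bZIP repressor of the same element. Bhlhe40 and Bhlhe41 encode basic helix-loop-helix repressors that act on E-boxes, and Ciart encodes a repressor of the core activators. Chondrocytes hold a clock of their own, and genes of cartilage matrix turnover are among those known to follow it.

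For a description of the promoters, the 250 bases before the transcription start were read from RefSeq (build GRCr8), where 6 of the 7 named genes matched. The searches covered both strands and used the letters CACGTG for the E-box and TTATGTAA or TTACGTAA for the D-box, which has ACGT in common with the E-box in its second form. An E-box was found in 4 of the 6 (Tef, Bhlhe40, Bhlhe41 and Ciart), against 5.59% of 33469 RefSeq promoter windows of that length. Dbp and Nfil3 had none in this window. Ciart had 3, a number reached or passed by 17 windows in all (0.0508%), and they began 93, 35 and 21 bases before the start. The E-box of Tef began 198 bases and that of Bhlhe40 220 bases before the start. A D-box was found in 0 of the 6 windows and in 0.932% of all windows. The 3 measured genes with an E-box are shown 5′ to 3′ on their own strand with the E-box in capitals, at chr2:186112247-186112496 (minus strand) for Ciart, chr7:115206577-115206826 (plus strand) for Tef and chr4:143174200-143174449 (plus strand) for Bhlhe40. A match is a description of the letters only. The genes were named as clock-driven, with earlier results of these data known. Whether an E-box bears on their levels was not tested.
Ciart: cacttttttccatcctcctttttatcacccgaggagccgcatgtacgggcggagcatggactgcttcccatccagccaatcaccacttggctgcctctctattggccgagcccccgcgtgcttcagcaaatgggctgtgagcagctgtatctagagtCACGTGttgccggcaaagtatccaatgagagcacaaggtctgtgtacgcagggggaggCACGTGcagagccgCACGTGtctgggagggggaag
Tef: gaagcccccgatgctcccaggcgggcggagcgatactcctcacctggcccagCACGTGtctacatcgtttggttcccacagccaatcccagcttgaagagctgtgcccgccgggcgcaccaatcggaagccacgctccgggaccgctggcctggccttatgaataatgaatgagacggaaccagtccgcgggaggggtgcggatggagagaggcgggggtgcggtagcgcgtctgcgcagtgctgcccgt
Bhlhe40: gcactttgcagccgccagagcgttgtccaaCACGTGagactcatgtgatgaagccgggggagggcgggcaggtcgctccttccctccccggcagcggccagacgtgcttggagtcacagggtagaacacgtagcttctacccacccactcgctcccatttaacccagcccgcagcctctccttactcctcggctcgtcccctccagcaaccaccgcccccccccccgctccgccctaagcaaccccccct

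Values are FPKM, the authors' fragment counts scaled to exon length and library depth, and group values are mean ± SD. Depth, recovered from the steps of the FPKM values, was 32059337 to 44517663 reads on the listed genes per library. Differences are in log2(FPKM + 1), which understates the change of low genes, and were tested with limma over 11282 genes with Benjamini-Hochberg adjustment, a gene being called at an adjusted p under 0.05. Changes given as times are ratios of group mean FPKM. The label of the tissue was checked on 14 chondrocyte markers, all in the table and none at 0 throughout, with a summed level of 10246 to 25166 FPKM per library. Other tissue was present too. The sum of 15 skeletal muscle markers was 34220 FPKM in HC replicate 1 and 407 in HC replicate 2, 6614 in SHAM replicate 3 and 1647 in KT replicate 1, and 214 to 1607 in the other 7 libraries, HC replicate 2 among them. The sum of 10 neutrophil and marrow markers was 2050 to 2568 FPKM in HC, 12675 to 16252 in OAC, 10228 to 12242 in SHAM and 3684 to 8348 in KT. For 10 macrophage markers it was 821 to 1062 in HC, 2505 to 3602 in OAC, 4598 to 7815 in SHAM and 4010 to 5161 in KT. None of the markers in the table was at 0 in all libraries. For 6 osteoclast markers the sum was 206 to 547 in HC, 1444 to 4686 in OAC, 836 to 2271 in SHAM and 472 to 1713 in KT, and for 7 erythroid markers 4757 to 5170, 7978 to 14142, 11542 to 15093 and 7488 to 8485. Lymphocyte markers, 9 in the table, summed to 56.5 to 67.0 FPKM in HC, 145 to 214 in OAC, 129 to 176 in SHAM and 103 to 118 in KT. The 7 adipocyte markers summed to 91.8 to 187, 195 to 210, 170 to 233 and 155 to 185 FPKM in the same order of groups. Their part in the differences below was not tested. In bulk tissue a gene's level cannot separate fewer cells of a type from less RNA per cell. Run tags in the header of the deposited comparison table put 2 of the 3 OAC runs under a tag that no other group has. Since no tag names its library, values within a tag cannot be given, and the tag cannot be told apart from OAC for those runs.

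Tef, a PAR bZIP activator, stood at 10.2 and 13.4 FPKM in the HC libraries. In OAC it was at 5.13, 5.12 and 5.94 FPKM, below both HC libraries. The SHAM libraries had 17.1, 14.1 and 16.6 FPKM and the KT libraries 18.3 and 18.1 FPKM. The 4 groups did not overlap in this gene, and their order from low to high was OAC, HC, SHAM, KT. The share of all genes that keep the 4 groups apart was not counted. Nor was it counted for the separations over several groups described for the other genes below. Shares of all genes for pairs of groups are given with the comparisons. Tef (NM_019194, chromosome 7 from 123043503 to 123058606 in rn6, plus strand) rested on 1239 to 4776 recovered reads per library.

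Dbp, the PAR bZIP activator whose transcript rises and falls most steeply in many tissues, covered a wider range. It was at 12.1 FPKM in HC replicate 1 and 51.0 in HC replicate 2, a difference of 4.21 times within the healthy group. The OAC libraries had 15.7, 14.8 and 24.0 FPKM and fell between the HC values. In SHAM it reached 74.6, 101 and 99.4 FPKM and in KT 110 and 129 FPKM. All 5 libraries at 10 weeks lay above all 5 HC and OAC libraries. Dbp (NM_001289983, chromosome 1 from 101687896 to 101692845, plus strand) rested on 923 to 8628 reads.

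Ciart, the repressor of the core activators, had the lowest mean FPKM of the 5 over all 10 libraries, although in SHAM and KT the mean of Nfil3 was lower. It was at 0.603 and 1.51 FPKM in HC and at 0.751, 0.683 and 0.742 in OAC. At 10 weeks it was at 3.04, 4.49 and 6.29 FPKM in SHAM and at 5.20 and 4.29 in KT. As in Dbp, the 10-week libraries were all above the others, and KT lay within the SHAM range. Ciart (NM_001134593, chromosome 2 from 197987705 to 197991198, minus strand) rested on 52 to 513 reads.

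Bhlhe40, the E-box repressor also known as Dec1, was at 27.8 FPKM or more in every library. The HC libraries had 35.0 and 60.1 FPKM, and OAC had 27.8, 34.4 and 38.5. SHAM stood at 60.1, 54.5 and 70.8 FPKM and KT at 65.2 and 53.2. Each 10-week library was above each OAC library, while the HC pair spanned from the OAC to the SHAM range. Bhlhe40 (NM_053328, chromosome 4 from 140703619 to 140709319, plus strand) rested on 4665 to 9709 reads.

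Nfil3, the D-box repressor, ran the other way among the injured groups. It was at 4.95, 5.28 and 4.92 FPKM in OAC, at 4.28, 3.29 and 3.82 in SHAM and at 2.98 and 2.36 in KT, so that these 3 groups did not overlap. The HC libraries held the extremes of the whole series, 11.4 FPKM in replicate 1 and 1.72 in replicate 2, which differ by 6.64 times. Nfil3 (NM_053727, chromosome 17 from 12261102 to 12276316, plus strand) rested on 184 to 1370 reads.

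**Figure D1:**
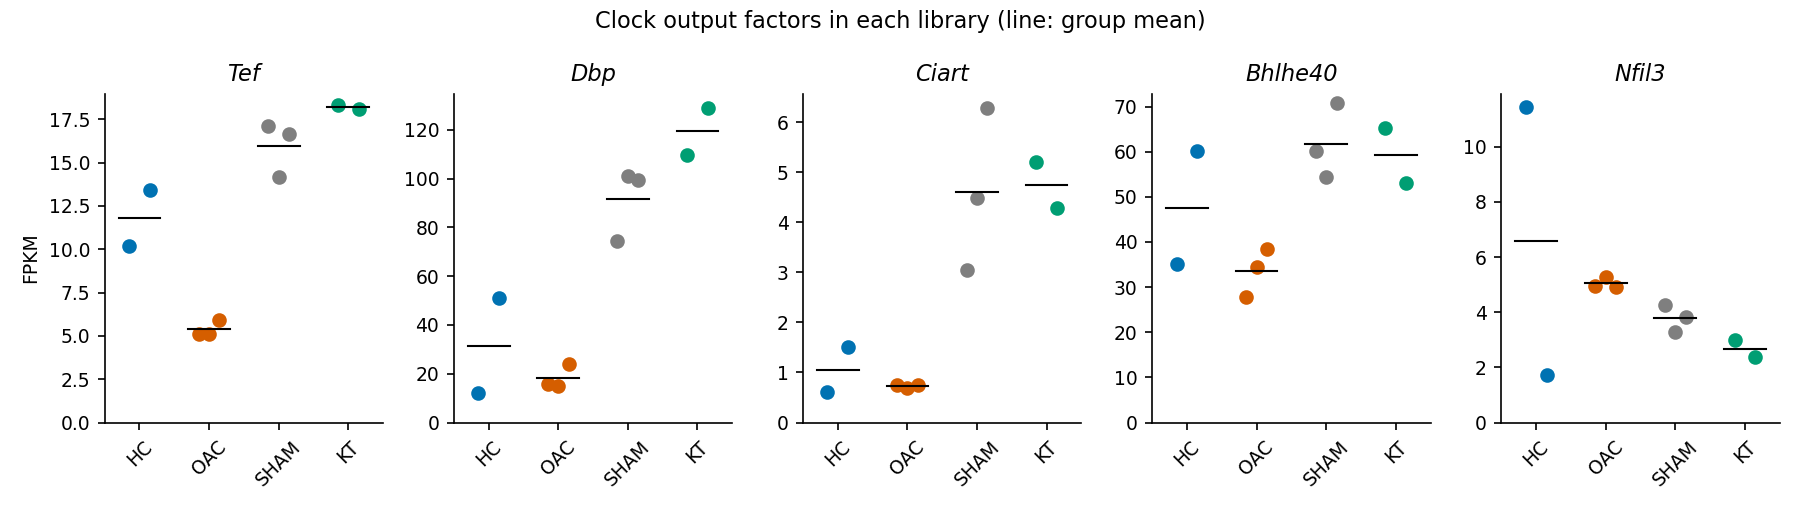
FPKM (y axis, from 0, its own scale in each panel) of Tef, Dbp, Ciart, Bhlhe40 and Nfil3 in each library (points) of the 4 groups (x axis), with the group mean as a line. Dbp runs from 14.8 to 24.0 in OAC and from 74.6 to 101 in SHAM, and the HC points of Nfil3 lie at 11.4 and 1.72.

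Cartilage 4 weeks after papain was set against healthy cartilage to ask how injury changed the output factors. Tef fell 2.18 times, from 11.8 ± 2.3 FPKM (SD, n = 2) in healthy to 5.40 ± 0.472 FPKM (SD, n = 3) in injured cartilage. Its log2 difference was -0.99 (SE 0.13; limma, Benjamini-Hochberg adjusted p = 0.0017). Of the 5 members 1 was called, lower, and 4 were not. Over all genes 29.7% were called in this comparison 23.4% higher and 6.27% lower. Tef was the 1 member with all OAC libraries below HC, a pattern of 14.7% of all genes, and 0 members had all OAC libraries above, a pattern of 41.5%. The median log2 difference of the members was -0.45 against 0.14 for all genes, and relative to that median of all genes Tef differed by -1.13. With median-of-ratios scaling the median of all genes was -0.02 and the calls split into 1731 higher of 3087, in place of 2641 of 3348, while Tef stood at -1.16.

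The other 4 members had wide intervals in this comparison. Dbp was at 18.2 ± 5.10 FPKM in OAC (SD, n = 3) and 31.6 ± 27.5 in HC (SD, n = 2), a log2 difference of -0.48 with a 95% interval of -1.57 to 0.61 (limma, adjusted p = 0.48). Bhlhe40 was at 33.6 ± 5.41 and 47.6 ± 17.7 FPKM, with a log2 difference of -0.45 and an interval of -0.98 to 0.074 (adjusted p = 0.17). Ciart stood at 0.725 ± 0.0369 and 1.06 ± 0.641 FPKM, a log2 difference of -0.22 (interval -0.79 to 0.36). For Nfil3 the mean was 5.05 ± 0.197 FPKM in OAC and 6.58 ± 6.87 in HC, while its mean log2 difference pointed the other way at 0.055 (interval -1.06 to 1.17). The authors' deposited comparison, made with DESeq2 on counts, gives HC against OAC a log2 fold of 1.31 for Tef (adjusted p = 1.2e-09). It gives 1.03 for Dbp (0.17), 0.69 for Bhlhe40 (0.061), 0.71 for Ciart (0.33) and 0.58 for Nfil3 (0.56).

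The limma values of these 4 members turned on which HC library was used, and HC replicate 1 is the library with the highest muscle marker sum. With it left out, 1 HC library remained and was assumed to vary like the other groups. Tef stayed lower at -1.17, and 4 members were then called in place of 1, where 3053 of all 11282 genes were called in place of 3348. Dbp became lower by a log2 difference of -1.47 (limma, adjusted p = 0.0084), Bhlhe40 lower by -0.83 (adjusted p = 0.023) and Nfil3 higher by 1.15 (adjusted p = 0.0038). With HC replicate 2 left out instead, Nfil3 was lower by -1.04 (adjusted p = 0.0042) and Dbp differed by 0.51 (adjusted p = 0.20). HC replicate 1 had more Nfil3 and less Dbp, Ciart and Bhlhe40 than HC replicate 2, beside its muscle markers, and the part of muscle in these values was not tested. SHAM replicate 3 was next in muscle markers, at 6614 against 34220 FPKM in HC replicate 1. It had 99.4 FPKM of Dbp and 3.82 of Nfil3, inside the range of the other SHAM libraries. In Ciart (6.29 FPKM) and Bhlhe40 (70.8 FPKM) it was the highest SHAM library. As its group and muscle sum differ from those of HC replicate 1, its values cannot stand in for a test of muscle.

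**Figure D2:**
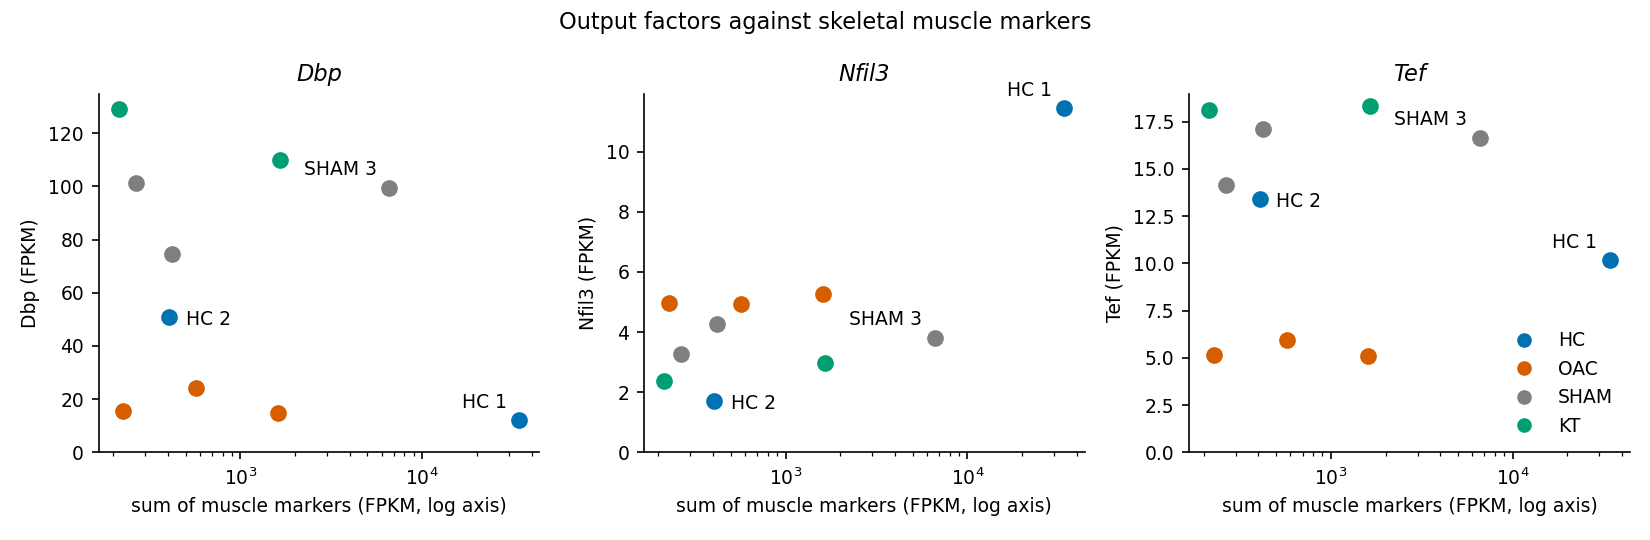
FPKM of Dbp, Nfil3 and Tef (y axes, from 0) against the summed FPKM of 15 skeletal muscle markers (x axis, log scale) in each library, coloured by group. HC replicate 1 stands alone at a muscle sum of 34220 FPKM with Dbp at 12.1 and Nfil3 at 11.4. SHAM replicate 3 is at a muscle sum of 6614 with Dbp at 99.4 and Nfil3 at 3.82.

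The next comparison was SHAM with OAC, whose difference joins the longer time since injury with the GFP vector. Tef, Dbp and Ciart rose. Tef went from 5.40 ± 0.472 to 16.0 ± 1.59 FPKM (SD, n = 3 each), 2.96 times higher, with a log2 difference of 1.40 (SE 0.12; limma, Benjamini-Hochberg adjusted p = 0.00061). Dbp went from 18.2 ± 5.10 to 91.7 ± 14.8 FPKM, 5.05 times higher, with a log2 difference of 2.29 (SE 0.43, adjusted p = 0.046). Ciart, which lies low, went from 0.725 ± 0.0369 to 4.60 ± 1.63 FPKM, 6.35 times higher (log2 difference 1.66, SE 0.23, adjusted p = 0.011).

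Of the 5 members 3 were called, all higher, in a comparison where 1.16% of all genes were called and 0.922% were called higher. The median log2 difference was 1.40 over the members and -0.024 over all genes. Bhlhe40, at 61.8 ± 8.25 against 33.6 ± 5.41 FPKM, was 1.84 times the OAC mean in SHAM with no overlap, and its log2 difference of 0.87 (interval 0.39 to 1.34) missed the threshold over all genes (limma, adjusted p = 0.14; unadjusted p = 0.0026). It passed with array weights (adjusted p = 0.025), in a fit of these groups alone (0.044) and without HC replicate 1 or 2 (0.035 each). Nfil3 was at 3.79 ± 0.495 against 5.05 ± 0.197 FPKM, below the OAC range in all 3 SHAM libraries, with a log2 difference of -0.34 (interval -1.34 to 0.66, adjusted p = 0.94). For 4 members the SHAM libraries were all above OAC, a pattern of 7.81% of all genes, and for 1 all below, a pattern of 10% of all genes.

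In the fit of all 10 libraries the call of Dbp was close to its threshold. It was lost when any 1 of the 6 OAC and SHAM libraries or of the 2 KT libraries was left out, with adjusted p = 0.087 to 0.20, though the log2 difference stayed at 2.17 to 2.5. It was also lost with quantile normalization (0.078), median-of-ratios scaling (0.055), voom on recovered reads (0.058) and no filter (0.093). The call of Dbp held more firmly with array weights (0.0022). So it did in a fit of OAC and SHAM alone (0.0028), with an SE of 0.20 in place of 0.43. The fit of all 10 libraries takes its spread from every group, and Dbp was at 12.1 and 51.0 FPKM in HC. Leaving out OAC replicate 2 (0.051), OAC replicate 3 (0.054) or SHAM replicate 2 (0.056) also ended the call of Ciart. The authors' deposited table, made with DESeq2 on counts, lists OAC against SHAM at a log2 fold of -2.44 for Dbp (adjusted p = 1.26e-28), -1.59 for Tef (3.45e-28), -2.68 for Ciart (5.37e-14) and -0.91 for Bhlhe40 (4.72e-06). For Nfil3 the authors' deposited table gives 0.39 (adjusted p = 0.25). It lists Dbp under another transcript, NM_012543 of 1654 bases, where the FPKM table has 1244 bases.

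**Figure D3:**
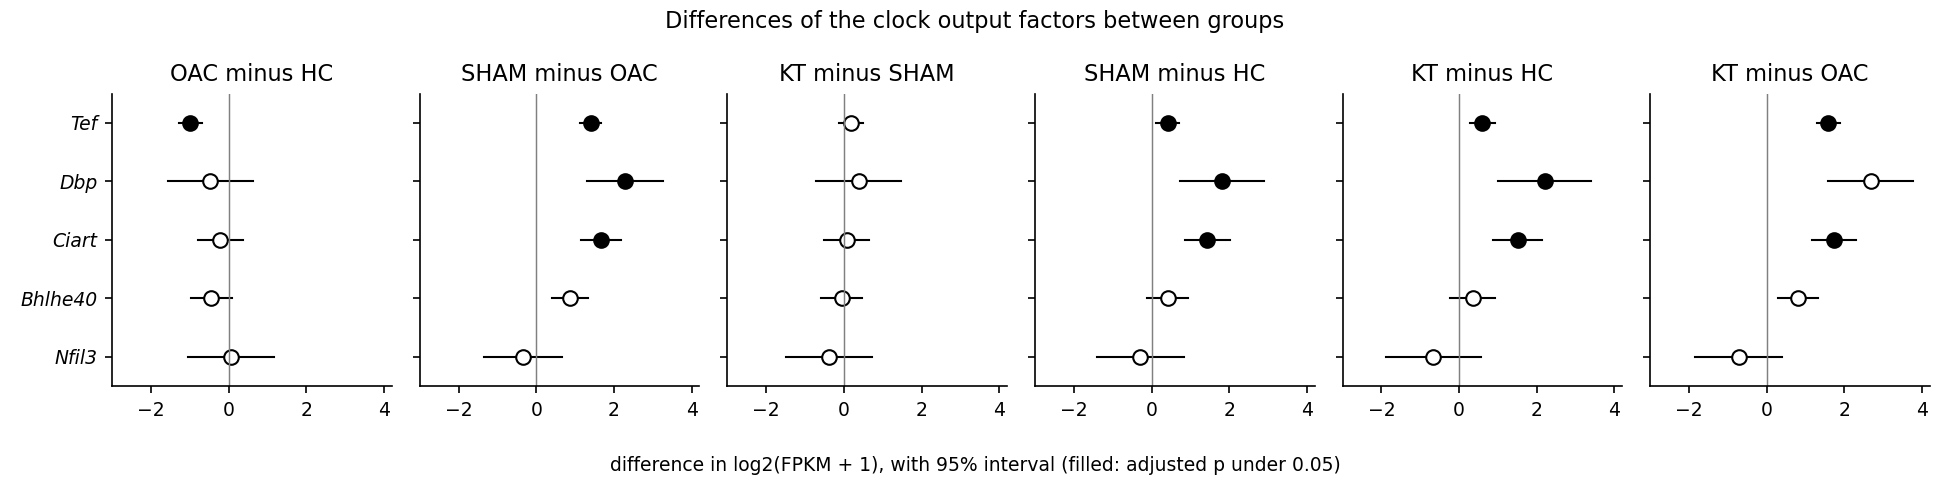
Difference in log2(FPKM + 1) (x axis) of the 5 members (y axis) in each of 6 comparisons of groups (panels), as points with 95% intervals from limma, filled where the adjusted p was under 0.05. In SHAM minus OAC, Tef (1.40), Dbp (2.29) and Ciart (1.66) are filled, and in KT minus SHAM no point is.

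KT was set against SHAM to ask what the αKlotho and sTGFBR2 vectors changed at matched time. In the fit of all 10 libraries limma called 0 of the 5 members, with 0 at an unadjusted p under 0.05. Voom on recovered reads also called 0. Over all genes 1.05% were called, 0.363% higher and 0.683% lower. Tef was at 18.2 ± 0.166 FPKM in KT (SD, n = 2) against 16.0 ± 1.59 in SHAM (SD, n = 3), a log2 difference of 0.18 with a 95% interval of -0.12 to 0.48. Dbp was at 119 ± 13.6 against 91.7 ± 14.8 FPKM, with a log2 difference of 0.39 (interval -0.71 to 1.48). Both KT libraries were above all SHAM libraries in Tef and Dbp, a pattern shown by 15% of all genes.

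Nfil3 lay below the SHAM range in both KT libraries, at 2.67 ± 0.437 against 3.79 ± 0.495 FPKM, with a log2 difference of -0.39 (interval -1.50 to 0.73), a pattern of 17.4% of all genes. Ciart, at 4.75 ± 0.641 against 4.60 ± 1.63 FPKM, differed by 0.073 (interval -0.50 to 0.65). Bhlhe40, at 59.2 ± 8.48 against 61.8 ± 8.25 FPKM, differed by -0.061 (interval -0.59 to 0.47). Each interval holds 0 and also differences as large as its bounds, so alike levels are not shown. These intervals take their spread from every group, HC among them. In a fit of KT and SHAM alone the SE of Nfil3 was 0.15 in place of 0.49 (limma, unadjusted p = 0.037, adjusted p = 0.33). For Dbp it was 0.17 in place of 0.48 (unadjusted p = 0.062, adjusted p = 0.38), and for Ciart 0.25 in both. That fit also called 0 members. The authors' deposited table gives KT against SHAM an unadjusted p of 0.0323 for Dbp and 0.0495 for Nfil3, with adjusted p = 0.26 and 0.33.

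Set against healthy cartilage, the 10-week groups were higher in Tef, Dbp and Ciart. Ciart was 4.36 times the HC mean in SHAM (log2 difference 1.44, SE 0.25; limma, adjusted p = 0.0043) and 4.49 times in KT (1.51, SE 0.28, adjusted p = 0.0092). Dbp was 2.90 times the HC mean in SHAM (log2 difference 1.81, adjusted p = 0.024) and 3.78 times in KT (2.20, adjusted p = 0.024). Tef was 1.35 times the HC mean in SHAM (log2 difference 0.41, adjusted p = 0.048) and 1.54 times in KT (0.60, adjusted p = 0.025). So 3 of 5 members were called higher in each, where 26.5% and 18.2% of all genes were called 21% and 14.3% higher and 5.48% and 3.95% lower. In these 3 members all SHAM and all KT libraries were above HC, patterns of 36.8% and 36.6% of all genes. With median-of-ratios scaling 1670 of 2946 calls in SHAM against HC and 1054 of 1860 in KT against HC were higher, in place of 2368 of 2986 and 1611 of 2057. Both comparisons share the HC libraries.

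These comparisons rest on the HC libraries too. Without HC replicate 1, Dbp in SHAM against HC went to 0.82 (limma, adjusted p = 0.061), Tef to 0.23 (0.24) and Ciart to 1.12, which stayed called. Nfil3 then turned from -0.29 to 0.81 and was called higher (adjusted p = 0.0089). Without HC replicate 2, all 5 members were called in SHAM against HC, Nfil3 lower at -1.38 (limma, adjusted p = 0.0018) and the other 4 higher, where 2720 of all 11282 genes were called in place of 2986. Tef in SHAM against HC lost its call in 8 of the 10 fits that leave out 1 library, all but those without HC replicate 2 or SHAM replicate 2, and under 8 of 10 other alternatives. Dbp lost its call there also without SHAM replicate 2 (0.071) or SHAM replicate 3 (0.064). The authors' deposited table gives HC against SHAM a log2 fold of -1.99 for Ciart (adjusted p = 0.00067), -1.42 for Dbp (0.15) and -0.29 for Tef (0.29).

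In KT against HC, Tef lost its call without HC replicate 1 (log2 difference 0.41, adjusted p = 0.079), KT replicate 1 (0.089) or KT replicate 2 (0.082). Dbp went to 1.21 without HC replicate 1 and 3.19 without HC replicate 2 and kept its call in both, and lost it without KT replicate 1 (0.077) or KT replicate 2 (0.097). Ciart lost its call without KT replicate 1 (0.052). Bhlhe40 stood at log2 differences of 0.41 in SHAM and 0.35 in KT and was not called in either (limma, adjusted p = 0.22 and 0.36).

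KT and OAC, which differ in time and in the vectors, were also compared. Tef was 3.37 times higher in KT (log2 difference 1.59, SE 0.13; limma, adjusted p = 0.0036) and Ciart 6.54 times (1.73, SE 0.25, adjusted p = 0.039). Dbp was 6.57 times the OAC mean (log2 difference 2.68) and missed the threshold (adjusted p = 0.0696). Here 2 of 5 members were called, both higher, against 0.399% of all genes called and 0.257% called higher. In 4 members all KT libraries were above OAC, a pattern of 17.5% of all genes, and in Nfil3 all were below, a pattern of 23.3%. Bhlhe40 differed by 0.80 (interval 0.28 to 1.33, adjusted p = 0.15) and Nfil3 by -0.73 (interval -1.84 to 0.39). Dbp passed without HC replicate 1 or 2 (adjusted p = 0.0042 and 0.0044). Tef lost its call without KT replicate 2 (0.052), and Ciart without SHAM replicate 2 (0.065) or any 1 of the OAC and KT libraries (0.051 to 0.30).

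In Tef, Dbp and Ciart the order of group means was OAC, HC, SHAM, KT. The step from OAC to HC was called in Tef and not in Dbp or Ciart, the step from HC to SHAM in all 3, and the step from SHAM to KT in none of them. In Bhlhe40 the order was OAC, HC, KT, SHAM and in Nfil3 KT, SHAM, OAC, HC, and no pair of groups was called in either gene. Group means spanned 3.37 times in Tef, 6.57 in Dbp, 6.54 in Ciart, 1.84 in Bhlhe40 and 2.47 in Nfil3.

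The balance of the D-box activator Dbp to the D-box repressor Nfil3, as a ratio of FPKM within a library, was 2.80 to 4.89 in OAC, 17.5 to 30.8 in SHAM and 36.9 to 54.7 in KT. In HC it was 1.06 in replicate 1 and 29.6 in replicate 2. With Tef in place of Dbp the ratio was 0.970 to 1.21 in OAC, 4.00 to 4.36 in SHAM, 6.16 to 7.67 in KT, and 0.888 and 7.79 in HC. Dbp and Tef each kept the 3 injured groups apart, and Nfil3 did so in the reverse order. Neither ratio could therefore overlap between these groups, and the ratios add no evidence to the single genes. The HC pair reached from below the OAC range to inside the SHAM range in the first ratio. In the second it reached from below the OAC range to above the KT range. The ratio was not tested, being a score over the members.

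The core loop genes give the setting in which the output factors stood. The list held 19 genes, of which 17 had a row and 16 could be tested. In OAC against HC 1 rose, 5 fell and 10 did not pass, with a median of -0.19 against 0.14 over all genes, of which 29.7% were called. The 5 that fell were the repressor genes Per2, Per3, Cry2, Nr1d1 and Nr1d2, with Nr1d1, a nuclear receptor repressor of Arntl, 2.79 times lower (limma, adjusted p = 0.0197), and the 1 that rose was Timeless. In SHAM against OAC 3 rose, 3 fell and 10 did not pass (median -0.008), where 1.16% of all genes were called. Per2, Nr1d1 and Nr1d2 rose 3.13, 3.16 and 2.05 times, and the activator genes Arntl, Npas2 and Clock were 5.09, 7.58 and 1.49 times lower. In KT against SHAM limma called 0 of the 16, with 0 at an unadjusted p under 0.05 and 0 by voom.

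Arntl itself was at 10.9 to 19.9 FPKM in the 5 HC and OAC libraries and at 2.56 to 3.36 in the 5 at 10 weeks, and Npas2 at 8.61 to 12.8 and 1.17 to 2.78 FPKM. The ratio of Ciart to Arntl was therefore 0.0304 to 0.0981 in HC and OAC and 1.10 to 2.46 in SHAM and KT. With Ciart higher and Arntl lower in every 10-week library, the 2 sets of libraries had to separate in this ratio. It adds no evidence to the single genes. HC replicate 1 and HC replicate 2, so far apart in Nfil3 and Dbp, had 19.9 and 15.4 FPKM of Arntl and 10.6 and 10.9 of Npas2. Between them Nr1d1 was 40.9 and 96.3 FPKM and Per3 6.85 and 13.4.

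**Figure D4:**
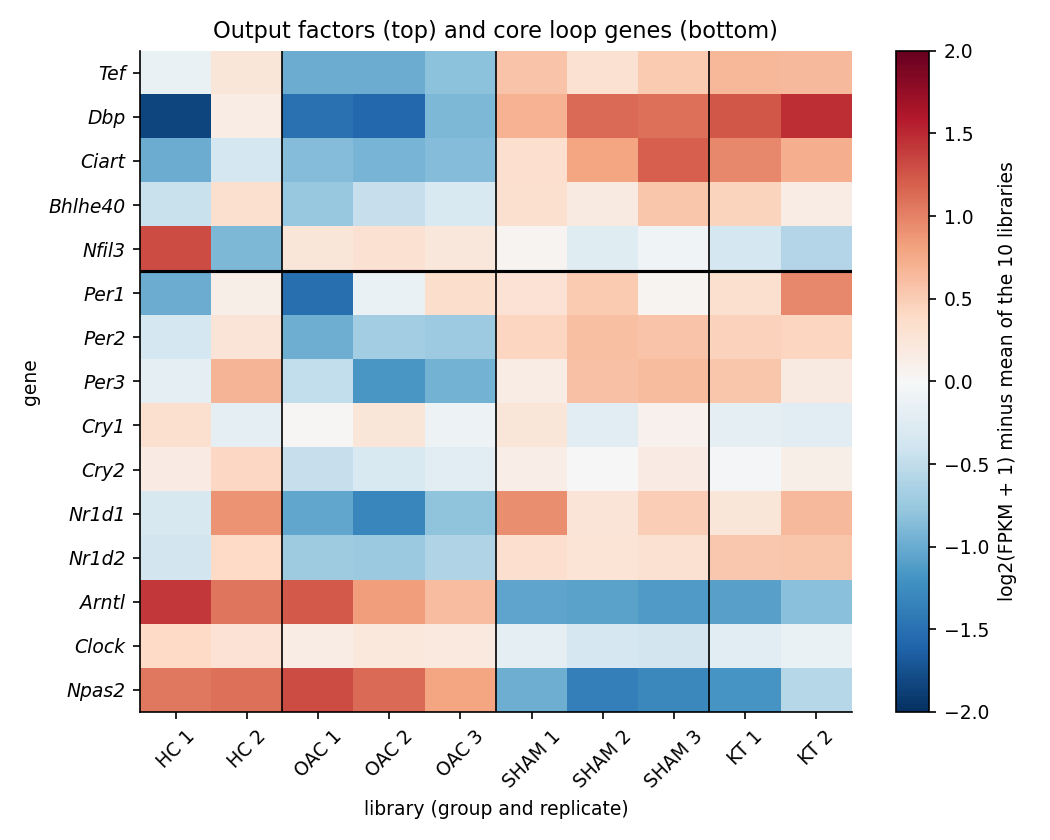
Log2(FPKM + 1) minus the mean of the 10 libraries (colour, red above and blue below) for the 5 output factors (upper rows) and 10 core loop genes (lower rows) in each library (columns, groups separated by lines). Tef, Dbp and Ciart are red in the 5 SHAM and KT libraries, where Arntl and Npas2 are blue, and HC replicate 1 is the reddest for Nfil3.

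Likeness between genes was described by Pearson's r of log2(FPKM + 1) over the 10 libraries, which share their groups and their depths. Tef was most like Nr1d2 (r = 0.97), Ephx1, which encodes an epoxide hydrolase (0.97), Per2 (0.96), Nr1d1 (0.93) and Parp3 (0.92). Dbp and Ciart were each other's nearest gene among all 11282 (0.95). After Ciart, Dbp was most like Gda, which encodes guanine deaminase, Sectm1b, Anxa7 and Nr1d2 (0.92 to 0.93), and after Dbp, Ciart was most like Ivns1abp, Sectm1b, Anxa7 and Fam76a (0.90 to 0.92). Bhlhe40 was most like Per2 (0.94), Ephx1, Nr1d2, Mtmr7 and Tef (0.90). For Nfil3 the nearest were Usp4 (0.95), Fhod3, Schip1, Tab2 and Gdpd1 (0.93). Among the members, Tef, Dbp, Ciart and Bhlhe40 had pairwise r of 0.86 to 0.95, and Nfil3 had r of -0.73 to -0.48 with them.

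Genes that PAR bZIP factors or the clock are known to drive were listed apart, 15 in the table and 14 tested. In SHAM against OAC limma called 0 of them, with 1 at an unadjusted p under 0.05 and 0 by voom, and their median was 0.018. Since 1.16% of all genes were called there, 0 of 14 is near the background. The 1 was Nampt, the rate-limiting enzyme of NAD salvage, at 44.1 against 19.9 FPKM with all SHAM libraries above OAC (log2 difference 1.10, limma adjusted p = 0.070). Usp2, a deubiquitinase with a rhythmic transcript in many tissues, was at 1.78 against 1.54 FPKM (log2 difference 0.13, adjusted p = 0.96), and Por, a P450 reductase known as a PAR bZIP target, at 10.8 in both (adjusted p = 0.998). In OAC against HC 3 rose, 1 fell and 10 did not pass, a share near the 29.7% of all genes called there. Noct, a rhythmic phosphatase, was 3.04 times higher, Wee1, a cell cycle kinase with E-boxes, 1.96 times and Pdxk, the kinase of vitamin B6, 1.87 times, while Ppara, a lipid-sensing nuclear receptor, was 2.60 times lower.

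Glucocorticoid and hypoxia target genes were counted beside the members, and their relation to the members' values was not tested. Over all genes 1.16% were called in SHAM against OAC, so that a count of 0 there is near the background, and 29.7% in OAC against HC. Of 10 glucocorticoid-induced genes limma called 0 in SHAM against OAC (1 at an unadjusted p under 0.05, 0 by voom; median 0.17). In OAC against HC 2 rose (Cebpd, 2.15 times, and Fkbp5, 1.74 times) and 2 fell (Zbtb16, 3.26 times lower, and Pdk4, 6.69 times lower). Of 11 hypoxia genes limma called 0 in both comparisons, with 0 at an unadjusted p under 0.05 and 0 by voom. Their medians were 0.04 in OAC against HC and 0.026 in SHAM against OAC. For KT the hypoxia medians were 0.31 against SHAM, 0.46 against HC and 0.34 against OAC. Over all genes they were -0.035, 0.086 and -0.05. Hypoxia genes called higher were 0, 1 and 0, and 0 were called lower. In the same order the glucocorticoid-induced medians were 0.14, 0.48 and 0.47, with 0, 2 and 0 called higher and 0, 1 and 0 lower. Over all genes 1.05%, 18.2% and 0.399% were called.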

How the data were processed

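Messenger RNA of 10 libraries was sequenced stranded and paired-end, per the labels' protocols. The deposited FPKM values and the authors' comparison table were used. Tools in the submitters' processing notes are STAR 2.5.3a, FastQC 0.11.2, HOMER and DESeq2 1.18.1, with build rn6. HOMER counted exon reads by strand and kept 1 transcript per gene, per the file headers, and the deposited log2 fold changes, p-values and adjusted p-values come from DESeq2. Their design is used here only as deposited.

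The members and gene lists were chosen with earlier results of these data known. Limma 3.58.1 in R 4.3.3 was fitted on log2(FPKM + 1) with an intensity trend, group as the only term and all 10 libraries, for 11282 genes averaging 0.5 FPKM or more, and tested on simulated data. Named genes are the members, core loop genes, up to 4 called genes of each other list and the 5 nearest genes of each member. Usp2, Por and Nampt in SHAM against OAC were named after their values were seen. Reads were recovered from the smallest FPKM step times exon length: of values under 1000 reads on transcripts shorter than 3000 bases, 100% lay within 0.15 of a whole read. Recovered reads cover counting error only and served voom as an alternative. Of each library's reads 58.6 and 58.8% in HC and 62.1 to 64.4% in the other groups lay on listed genes. This share enters the scaling of FPKM and so every difference from HC. Alternatives were another pseudocount, filters, scalings, weights and fits, a replicate block and leaving out each library.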

Additional observations from a re-analysis of the deposited data

How the results depend on the processing

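Of 12 called member differences, 3 kept their call under all 20 alternatives listed in the methods: Tef in OAC against HC (-1.28 to -0.80), Tef in SHAM against OAC (1.36 to 1.60) and Ciart in SHAM against HC (1.12 to 2.11). None of the 12 changed sign. The 2 to 3 libraries a group limit all of these comparisons. Calls over all 11282 genes also fell without 1 OAC or SHAM library. They were then 2163 to 3179 in OAC against HC (3348 with all libraries) and 54 to 91 in SHAM against OAC (131). In SHAM against HC they were 1968 to 2736 (2986) and in KT against HC 1472 to 1838 (2057). In KT against OAC they were 4 to 20 (45) and in KT against SHAM 49 to 100 (118). The ranges of members that follow also take in fits without 1 HC or KT library, which leave 1 library in that group. Totals over all genes are not given for those fits, and not all of them fell. In KT against OAC without KT replicate 1 the total rose. The number of members called, leaving out 1 library at a time, was 1 to 4 in OAC against HC, 1 to 4 in SHAM against OAC, 1 to 5 in SHAM against HC, 0 to 4 in KT against HC, 0 to 3 in KT against OAC and 0 in KT against SHAM. It fell to 1 in SHAM against HC with quantile normalization and in a fit of those groups alone, and in KT against HC to 1 with quantile normalization, 0 with those groups alone and 1 with array weights, fits in which the genes called over all 11282 were 1569, 10 and 493 in place of 2057. In SHAM against HC they were 2817 and 1970 in place of 2986. In KT against OAC it was 1 with no filter and 1 with the replicate block, with 20 and 13 genes called in all in place of 45. The cause was not tested.

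Nfil3 in OAC against HC turned to -0.11 with quantile normalization, -0.093 with median-of-ratios scaling and -0.011 with voom. Leaving out 1 library at a time gave log2 differences of -1.47 to 0.51 for Dbp, -1.04 to 1.15 for Nfil3 and -0.54 to 0.11 for Ciart in OAC against HC. In KT against SHAM it gave -0.20 to 0.084 for Bhlhe40 and -0.14 to 0.28 for Ciart. Nfil3 ranged from -1.38 to 0.81 in SHAM against HC and from -1.77 to 0.42 in KT against HC, where Bhlhe40 ranged from -0.029 to 0.73. A further fit left out HC replicate 1, SHAM replicate 3 and KT replicate 1, the libraries of highest muscle marker sum. This choice was made after seeing the data. It kept 1 library each in HC and KT, which were assumed to vary like OAC and SHAM, so only log2 differences are given. In OAC against HC they were -1.17 for Tef, -1.47 for Dbp, -0.54 for Ciart, -0.83 for Bhlhe40 and 1.15 for Nfil3. In SHAM against OAC they were 1.37, 2.23, 1.45, 0.77 and -0.35 in the same order of genes. Nfil3 then stood at 0.80 in SHAM against HC and 0.30 in KT against HC, and Bhlhe40 at -0.069 and -0.17.

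Whether replicate numbers pair the libraries could not be decided. Deviations of 13 same-numbered pairs correlated at -0.48 to 0.49, and 3 of 10 libraries correlated best with their own number. In HC and KT, with 2 libraries each, the deviations from the group mean are mirror images. HC replicate 1 thus had 0.36 with KT replicate 1 and -0.36 with KT replicate 2. With the replicate block Bhlhe40 in KT against SHAM went to 0.041, Tef lost its call in SHAM against HC and KT against HC (limma, adjusted p = 0.14 and 0.06) and Ciart in KT against OAC (0.0698). The block changed no other call of the 5 genes.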
